A study of Solanum lycopersicum with 6 samples.

Results

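The florigen family of tomato (Solanum lycopersicum), also called the CETS family, was followed in RNA sequencing libraries of shoot apices. Its 8 members were chosen by identifier from the 34722 genes of the deposited table. They are SFT (Solyc03g063100, chromosome 3), SP (SELF-PRUNING, Solyc06g074350, chromosome 6), SP5G (Solyc05g053850, chromosome 5), SP2G (Solyc02g079290, chromosome 2), SP9D (Solyc09g009560, chromosome 9), SP6A (Solyc05g055660, chromosome 5) and a pair of SP5G-like genes on chromosome 11 (Solyc11g008640 and Solyc11g008650). The table carries identifiers without names. RefSeq (assembly SLM_r2.1) lists 6 of the 8 names, all 6 on the chromosome that the identifier carries, and gives MFT as another name of SP2G.

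There were 3 groups with 2 libraries each. The wild-type group (WT) is the untreated apex, dissected with its 2 youngest leaf primordia. The lfs group is the meristem of the leafless mutant, and the TIBA group is the meristem of a pin-like shoot made by spraying with 1 mM TIBA (triiodobenzoic acid, which blocks the polar transport of auxin); neither was described as holding primordia. All plants were greenhouse seedlings of 14 to 18 days, and apices were dissected after acetone fixation. The labels give neither the lfs allele nor the number of plants in a library, and they do not say whether repeats came from separate plantings. The p-values of group comparisons therefore set a difference against the spread between repeat libraries of unknown independence. Part of that spread may be technical.

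Florigens are small mobile proteins. In tomato SFT, the orthologue of Arabidopsis FT, is made in leaves, travels through the phloem and promotes flowering at the apex, where it acts with bZIP transcription factors and 14-3-3 proteins. SP is the tomato counterpart of Arabidopsis TFL1 and works against SFT: it keeps meristems indeterminate, and its loss gives the compact plants of determinate varieties. SP5G is an FT-like gene that delays flowering, while MFT, the third branch of the family, is known in Arabidopsis mainly for its role in seed germination.

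Libraries held 17640302 to 26054787 gene-assigned reads. LFS (Solyc05g013540, an identifier given from memory of published work), the gene affected in the mutant, stood at normalized counts of 707 and 711 in WT, 3031 and 3887 in lfs and 582 and 338 in TIBA, so its level does not by itself check the labels. All 4 identifiers recalled as meristem genes had reads in every library, with summed normalized counts of 6177 and 7071 in WT, 8018 and 9231 in lfs, and 10240 and 7802 in TIBA. The 4 recalled as leaf primordium genes summed to 13123 and 14434 in WT, 5600 and 5758 in lfs, and 7996 and 5697 in TIBA. Most of each sum came from a single identifier, so the sums do not show how the others of each list differed between groups.

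Few or no reads came from most florigen family members in these apices. No read was assigned to SP5G, SP6A, Solyc11g008640 or Solyc11g008650 in any of the 6 libraries. SFT and SP9D had at most 3 reads over all libraries, and SP and SP2G alone passed the minimum for testing, a normalized count of 10 in at least 2 libraries. Among all genes of the table, 26.8% had no read in any library, 32.8% had at most 3 reads, and 57.0% were tested.

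**Figure D1:**
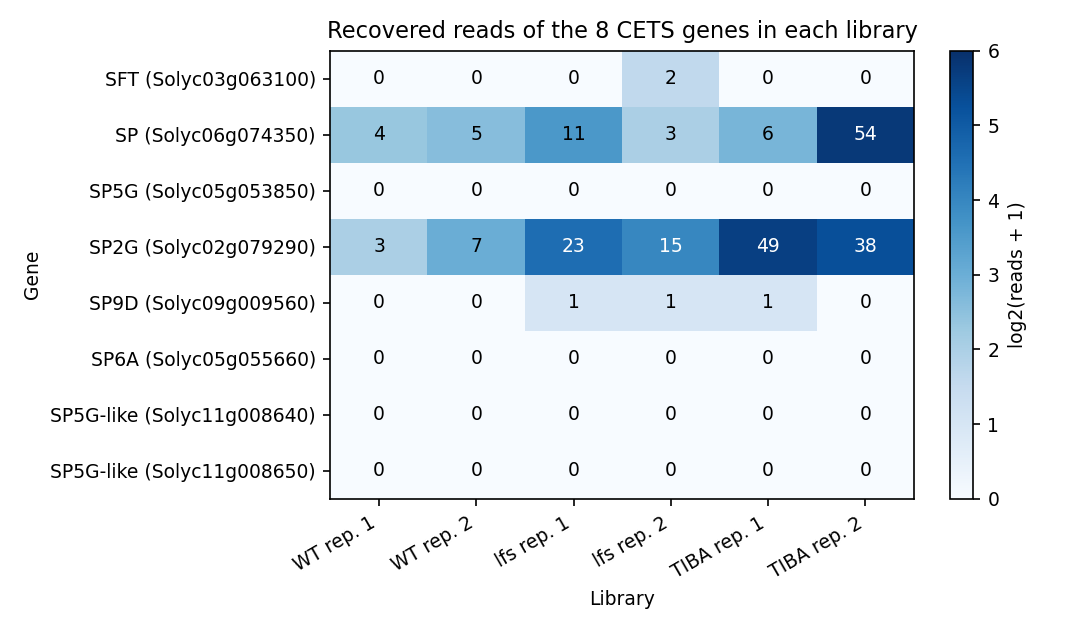
Reads of each of the 8 family members (rows) in each library (columns); the printed number is the read count and the shade its log2 value after adding 1. Reads are concentrated in the rows of SP and SP2G, where SP2G is highest in the TIBA libraries and SP in TIBA replicate 2.

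SFT, the florigen itself, had 2 reads in lfs replicate 2 and none in the other 5 libraries. The 2 reads correspond to 0.0768 reads per 1000000 gene-assigned reads (RPM; exact 95% Poisson interval 0.00930 to 0.277). Where a library held no read, a level of up to 0.116 to 0.170 RPM remains possible at its depth, taking 3 counts as the limit for a count of 0. The SFT value in lfs replicate 2 therefore lies under that limit, and no difference between groups was detectable at this depth. These limits and intervals cover counting error only, since the reads carry no molecular identifiers.

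The FT-like repressor SP5G and its chromosome 11 relatives were not seen either. Over all 138295283 reads, no read was assigned to SP5G, so the limit for its level over the whole series is 0.0217 RPM. The same limit holds for SP6A and for both chromosome 11 genes. At least 1 read was assigned to all 10 of the identifiers that flank SP5G, to 7 of the 10 that flank SP6A, and to 5 of the 10 that flank SFT. The 2 chromosome 11 genes have consecutive identifiers, with reads on 7 of 10 neighbours of each. The next identifier, Solyc11g008660, also had no read. How reads that match several similar genes were counted is not given in the sources used here, and a 0 for these neighbours means only that no read was assigned to them.

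SP9D had 1 read in lfs replicate 1, 1 in lfs replicate 2 and 1 in TIBA replicate 1, and none in the other 3 libraries. No group held more than 2 reads, so no fold is given.

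SP2G, the family member that RefSeq also calls MFT, rose in TIBA pins. Its normalized counts were 2.69 and 6.07 in WT, 23.3 and 12.2 in lfs, and 40.5 and 45.5 in TIBA. These values rest on 3 and 7 reads in WT, 23 and 15 in lfs, and 49 and 38 in TIBA. The values of the 3 groups did not overlap: both WT libraries were lowest, both TIBA libraries highest and both lfs libraries lay between them. Exact 95% counting intervals did overlap between neighbouring groups. That of lfs replicate 2 (6.83 to 20.1) overlapped those of WT replicate 1 (0.555 to 7.87) and WT replicate 2 (2.44 to 12.5). That of lfs replicate 1 (14.8 to 34.96) overlapped those of TIBA replicate 1 (29.99 to 53.6) and TIBA replicate 2 (32.2 to 62.4). No WT interval reached a TIBA interval. How often the groups of other genes lie apart was not counted.

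The WT mean was 4.38 ± 2.38 (SD, n = 2). In the mutant the mean was 17.7 ± 7.85 (SD, n = 2), and the TIBA mean was 43.0 ± 3.50 (SD, n = 2). On the log2(normalized count + 1) scale the TIBA pin exceeded WT by 3.10 (SE 0.55, 95% interval 1.81 to 4.40, limma adjusted p = 0.0114), or 8.60-fold. With so few reads the value depends on the added 1. For TIBA against WT it was 3.25 with 0.5 added instead and 2.38 with 5 added. Of all genes tested in that comparison, 10.8% were called higher. The call was lost without WT replicate 1 (log2 2.64, adjusted p = 0.0903), while the other alternatives gave limma, edgeR or DESeq2 adjusted p-values between 0.0012 and 0.0459.

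The lfs apex held SP2G at a level that did not pass the test against WT or against TIBA. Against WT the log2 difference was 1.81 (SE 0.55, 95% interval 0.52 to 3.10, limma adjusted p = 0.0727). Against TIBA it was -1.30 (SE 0.55, 95% interval -2.59 to -0.0023, limma adjusted p = 0.215). Neighbours in the order WT, lfs, TIBA were thus not told apart by the adjusted test, whereas the ends of that order were. The 2 comparisons with WT share their control libraries.

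**Figure D2:**
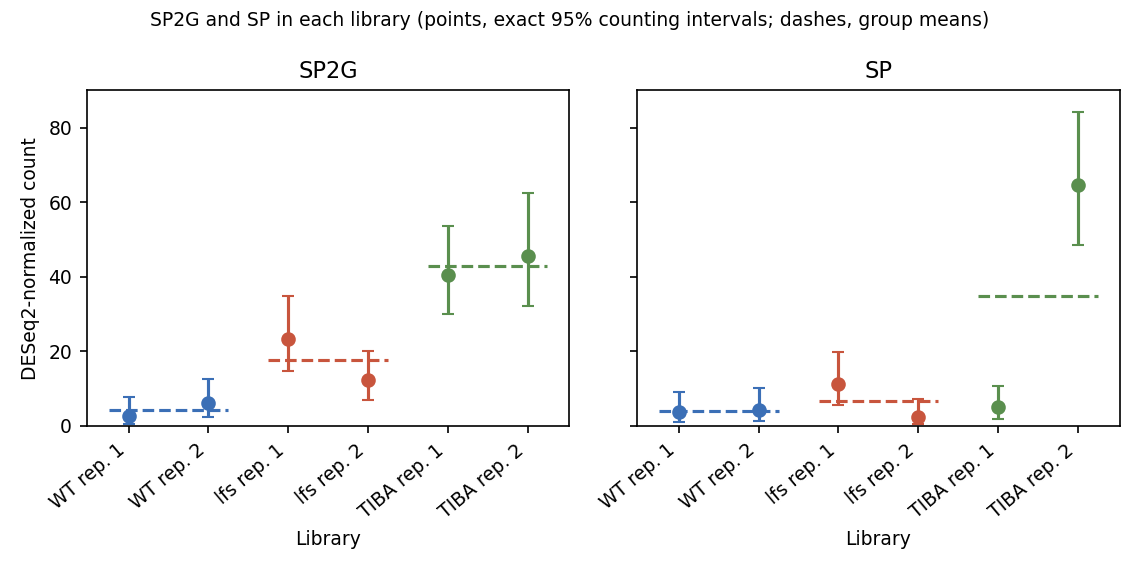
DESeq2-normalized counts (vertical axis) of SP2G and SP in each library; bars are exact 95% Poisson counting intervals and dashes are group means. SP2G is low in both WT libraries and high in both TIBA libraries, whereas SP is high in TIBA replicate 2 alone, at 64.6.

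SP, the antiflorigen, was low in 5 libraries and high in 1. Its normalized counts were 3.59 and 4.33 in WT, 11.1 and 2.44 in lfs, and 4.96 and 64.6 in TIBA. The reads behind them numbered 4 and 5 in WT, 11 and 3 in lfs, and 6 and 54 in TIBA. TIBA replicate 2, also the shallowest library, stood above all others, TIBA replicate 1 lay inside the range of lfs, and the lfs libraries spanned both WT values.

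The 2 TIBA libraries differed 13-fold in normalized SP counts, more than counting error gives (exact binomial test on the reads, two-sided, p = 2.4e-15); that test compares these libraries and not the conditions. The lfs libraries differed 4.57-fold (exact binomial test, two-sided, p = 0.0136), and the WT libraries 1.21-fold (exact binomial test, two-sided, p = 1.0). SP2G differed 1.12-fold between the same TIBA libraries (exact binomial test, two-sided, p = 0.588).

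No comparison called SP. The log2 difference was 2.00 for TIBA against WT (SE 1.15, 95% interval -0.70 to 4.70, limma adjusted p = 0.257). It was 0.39 for lfs against WT (SE 1.15, 95% interval -2.32 to 3.09, limma adjusted p = 0.866) and -1.61 for lfs against TIBA (SE 1.15, 95% interval -4.32 to 1.09, limma adjusted p = 0.444). Intervals this wide include no change as well as changes of several fold. With TIBA replicate 2 left out, TIBA against WT was 0.27 (limma adjusted p = 0.876), and with TIBA replicate 1 left out it was 3.73 (limma adjusted p = 0.0245). In that last fit the lone TIBA library is assumed to vary like the other groups.

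**Figure D3:**
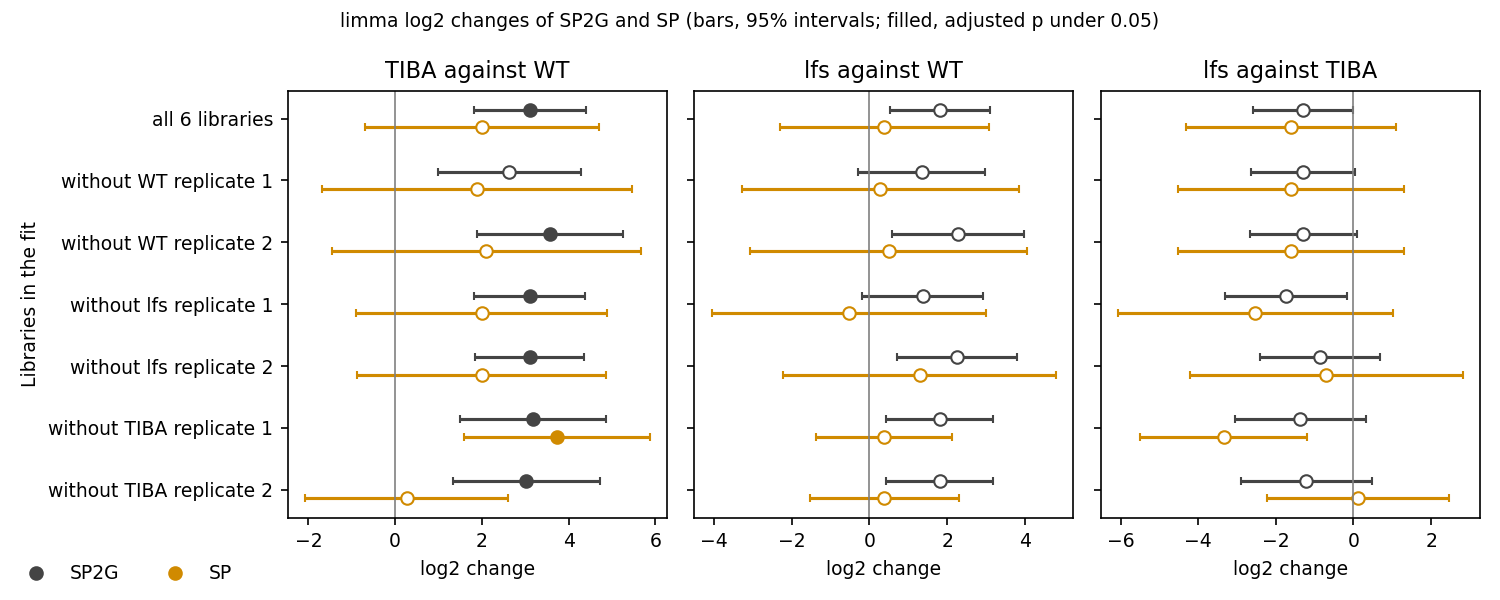
limma log2 differences (horizontal axis) of SP2G and SP for the 3 comparisons, with all 6 libraries and with each library left out (rows); bars are 95% intervals and filled points have an adjusted p under 0.05. SP2G stays above 0 in every fit of TIBA against WT, and the SP value moves from 3.73 to 0.27 with the TIBA library that is left out.

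The number of members called was 1 in TIBA against WT and 0 in lfs against WT and in lfs against TIBA (limma, adjusted p under 0.05). The background shares of genes called in either direction were 18.6%, 14.2% and 4.60% of 19807. In each of the last 2 comparisons 1 member, SP2G, had an unadjusted p under 0.05, and edgeR and DESeq2 on recovered reads also called 0. SP2G passed the minimum only through its lfs and TIBA libraries, and SP through lfs replicate 1 and TIBA replicate 2, so the share called among them is not read as a property of the family. The ratio of SP to SFT within a library was not formed, because SFT had no read in 5 of 6 libraries.

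In the authors' deposited table SP2G had a log2 fold change of 3.29 in TIBA against WT (adjusted p = 0.00353), and 2.01 in lfs against WT (adjusted p = 0.160). In the authors' deposited table SP had 3.12 in TIBA against WT (adjusted p = 0.0681) and -2.37 in lfs against TIBA (adjusted p = 0.306). The authors' deposited table also gives SP6A a fold change and p-values although all its 6 normalized counts are 0, and it does so for 420 of the 9297 genes without a read here, whereas SP5G and the chromosome 11 pair are marked NA. Which libraries entered the authors' fit is not stated, so these deposited p-values may not rest on the same 6 libraries.

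Genes recalled from published work as partners of the florigens were well covered by reads in all 3 groups. Such identifiers cannot be checked against the table, so they are given without names. The 2 identifiers recalled as bZIP partners were tested, as were 10 of 11 recalled as 14-3-3 proteins. The remaining 14-3-3 identifier had no read. The 14-3-3 identifiers summed to normalized counts of 44021 and 48674 in WT, 42873 and 49826 in lfs, and 40395 and 41046 in TIBA.

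Most of these partners did not pass the test. In lfs against WT, 0 rose and 3 of 12 fell (background 8.90% higher and 5.29% lower). The median log2 change was 0.07 for the 14-3-3 identifiers, with all tested genes at -0.001. Solyc02g083520, listed as a bZIP partner, stood at 2989 and 2841 in WT, 917 and 1140 in lfs, and 2234 and 2278 in TIBA. Both lfs libraries lay below all others, and the gene fell by 1.51 on the log2 scale against WT (SE 0.15, limma adjusted p = 0.00146). It was also lower in lfs than in TIBA (log2 -1.14, SE 0.15, limma adjusted p = 0.0104). Both calls held at an adjusted p of 0.05 in each alternative fit and with each library left out, and the call against TIBA did not pass an adjusted p of 0.01.

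Solyc12g057110, listed among the 14-3-3 identifiers, stood at 570 and 716 in WT, 215 and 181 in lfs, and 48.0 and 107 in TIBA. WT was highest without overlap, and the log2 change was -1.69 in lfs (SE 0.37, limma adjusted p = 0.0252) and -3.14 in TIBA (SE 0.37, limma adjusted p = 0.00335). In TIBA against WT, 0 partners rose and 2 of 12 fell (background 10.8% higher and 7.77% lower). The second was Solyc11g010200, at 5557 and 6029 in WT and 1996 and 2759 in TIBA (log2 -1.30, SE 0.21, limma adjusted p = 0.00811). Solyc11g010200 was also called lower in lfs than in WT, at 2519 and 3341 in lfs (log2 -0.996, SE 0.21, limma adjusted p = 0.0219). Of the 14-3-3 identifiers, 2 were called in lfs against WT with all libraries, 0 without either WT replicate or lfs replicate 1, and 1 without lfs replicate 2 (limma). Without the intensity trend and robust moderation that count was also 0. In TIBA against WT the count of 2 became 1 without either WT replicate.

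Genes recalled as acting with or below florigen at the apex moved in both directions. Of 12 identifiers, 11 were in the table and 9 were tested. In lfs against WT 3 rose and 3 fell (background 8.90% higher and 5.29% lower), and 3 were not called (limma). The median log2 change was 0.15. In TIBA against WT 2 rose and 2 fell (background 10.8% higher and 7.77% lower), and 5 were not called. The median was 0.01 beside 0.01 for all tested genes. In lfs against TIBA 2 were higher and 1 lower, with background shares of 1.97% and 2.64%. Solyc05g056620 and Solyc02g089210 passed the minimum for testing only through their lfs and TIBA libraries. Solyc02g077390 would not have passed without its WT libraries. The shares called are therefore not read as a property of the list. The number lower in lfs than in WT was 0 without either WT replicate and 1 without either lfs replicate, and the number higher was 3 in each of these fits (limma). In TIBA against WT the number lower was 1 without either WT replicate, without TIBA replicate 2 or without the trend, and the number higher was 3 without WT replicate 2 or TIBA replicate 1. In lfs against TIBA, leaving out a library gave 0 to 3 higher and 0 to 2 lower.

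The 2 largest increases of this list were in the same 2 identifiers in both comparisons, which share the WT libraries. Solyc05g056620 had no read in either WT library, 307 and 820 in lfs, and 102 and 53.9 in TIBA, as normalized counts (limma adjusted p = 0.00035 for lfs and 0.00148 for TIBA against WT). Solyc02g089210 stood at 3.59 and 0.00 in WT, 215 and 427 in lfs, and 154 and 200 in TIBA, and was higher in lfs (log2 7.15, SE 0.71, limma adjusted p = 0.00151) and in TIBA (log2 6.36, SE 0.71, limma adjusted p = 0.00283) than in WT. Both genes were therefore near 0 in the apices with primordia and above 50 in every leafless library.

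Among the decreases, Solyc02g077390 stood at 52.1 and 60.7 in WT, 5.06 and 12.2 in lfs, and 0.827 and 0.00 in TIBA. Its log2 change was -2.68 in lfs (SE 0.63, limma adjusted p = 0.0332) and -5.40 in TIBA (SE 0.63, limma adjusted p = 0.00337). Solyc03g118160 stood at 3730 and 3744 in WT, 630 and 1390 in lfs, and 3394 and 3606 in TIBA. It was lower in lfs than in TIBA (log2 -1.90, SE 0.32, limma adjusted p = 0.0249), and both lfs libraries lay below the other 4.

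**Figure D4:**
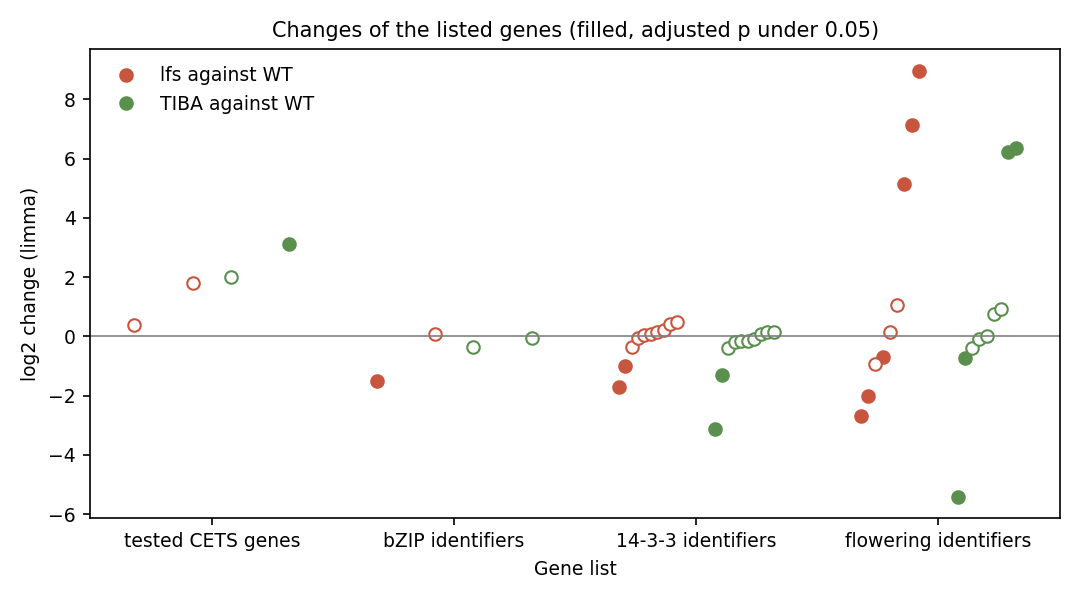
limma log2 changes against WT (vertical axis) of the 2 tested family members and of the identifiers recalled as bZIP partners, 14-3-3 proteins and flowering genes; each point is a gene, and filled points have an adjusted p under 0.05. Most 14-3-3 points lie near 0, while flowering identifiers spread from -5.40 to 8.97, the latter for Solyc05g056620, whose fitted value depends on the pseudocount because WT had no read.

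Of the identifiers recalled as markers of other cell types, those of leaf photosynthesis were called in TIBA against WT, the comparison that called SP2G, and those of phloem and floral organs were not. That comparison also called 2 of 4 meristem identifiers higher and 3 of 4 leaf primordium identifiers lower (limma, background 10.8% higher and 7.77% lower). Without the intensity trend and robust moderation these counts were 1 and 2 (limma). In bulk tissue fewer cells of a type and less RNA per cell cannot be told apart. The 3 identifiers recalled as leaf photosynthesis genes summed to 12889 and 13855 in WT, 36278 and 22014 in lfs, and 31532 and 45878 in TIBA. Within lfs and within TIBA the library with the larger sum also held the higher SP2G and SP values. For SP2G neither difference exceeded counting error at a p of 0.05. It was 1.91-fold in lfs (exact binomial test, two-sided, p = 0.0511) and 1.12-fold in TIBA (exact binomial test, two-sided, p = 0.588). In TIBA against WT 3 of 3 were called higher, and 1 of 3 without either WT replicate (limma). In lfs against WT 2 of 3 were called higher by limma, a count that became 0 when WT replicate 1 was left out and 1 when WT replicate 2 was. Of all tested genes, 10.8% were called higher in TIBA against WT and 8.90% in lfs against WT. Without the intensity trend and robust moderation, 2 of the 3 photosynthesis identifiers were called higher in TIBA against WT (limma). The single identifier recalled as a phloem gene stood at 290 and 290 in WT, 648 and 859 in lfs, and 410 and 336 in TIBA. It was higher in lfs than in WT (log2 1.36, SE 0.19, limma adjusted p = 0.00573, not called without WT replicate 1) and was not called between TIBA and WT (log2 0.36, SE 0.19, limma adjusted p = 0.235). The part of these genes in the SP2G difference was not tested.

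Of 8 identifiers recalled as floral organ genes 3 were tested, and 1 had no read in any library. The sum over all 8 was 654 and 594 in WT, 773 and 1904 in lfs, and 713 and 697 in TIBA. Nearly all of it in WT and TIBA came from 1 tested identifier. That identifier was at 650 and 591 in WT, 609 and 511 in lfs, and 708 and 683 in TIBA. For the other 2 tested identifiers the lfs counts were 144 and 1137, and 16.2 and 255. Their WT counts were all 0, and their TIBA counts were at most 2.39. In lfs against WT 2 of the 3 were called higher and in TIBA against WT 0 (limma; 0 at an unadjusted p under 0.05, and 0 with edgeR and with DESeq2). The background shares called higher were 8.90% and 10.8%. The 2 called identifiers passed the minimum for testing only through their lfs libraries, so the share called is not read as a property of the list. The count of 2 became 1 without either WT replicate or lfs replicate 2. The floral sum was larger in lfs replicate 2, which held less SP2G and SP than lfs replicate 1. Its part in those values was not tested.

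The tested genes whose pattern over the 6 libraries correlated most with SP2G were Solyc07g053180 and Solyc01g096320, among 16618 genes with a mean normalized count of at least 50. Pearson's r on the log2 scale was 0.996 and 0.995, a description over 6 libraries that fall into 3 groups. It does not compare the level or the size of the change. Solyc07g053180 stood at 1347 and 1497 in WT, 2135 and 1819 in lfs, and 2525 and 2583 in TIBA, a smaller change than that of SP2G. Solyc01g096320 stood at 0.898 and 3.47 in WT, 170 and 28.5 in lfs, and 581 and 849 in TIBA. Both genes had the same order of groups as SP2G, which follows largely from choosing them by their correlation with it.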

How the data were processed

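Reads were aligned with TopHat2 (2.0.10), counted with HTSeq (0.6.1p1) and normalized with DESeq2 (1.6.3), as the submitters' processing notes say. For genome build and gene models: not given in the sources used here. Values in the deposited table are a signal: DESeq2-normalized counts, that is gene counts divided by 1 size factor per library, per the file headers. The log2 fold changes deposited beside them, and their p-values, are the authors' own, per the file headers. All 208332 values (100%) were whole multiples of 1 read within 0.001 reads, so reads were recovered.

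The main test, limma 3.58.1 under R 4.3.3, used log2(normalized count + 1) of all 19807 genes with a normalized count of at least 10 in at least 2 libraries. The 3 groups were fitted together, with an intensity trend, robust moderation and Benjamini-Hochberg adjustment (threshold 0.05). Alternatives included edgeR (4.0.16) and DESeq2 (1.42.0) on recovered reads, and the procedure was tested on simulated data. Members and lists were chosen with earlier results of these data known. Named genes are the 8 members, LFS, up to 2 called identifiers per direction from each of the partner and flowering lists, and the 2 genes most like the member with the highest mean count; list identifiers came from memory. Pairing of replicate numbers was checked. Reads totalled 17640302 to 26054787 per library.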

Additional observations from a re-analysis of the deposited data

How the results depend on the processing

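With 9 to 87 reads a group, counting error limits every value of SP and SP2G. The number of members called in TIBA against WT was 1 and became 0 at an adjusted p under 0.01; with each library left out in turn it ran from 0 (without WT replicate 1) to 2 (without TIBA replicate 1). It stayed at 0 in the other comparisons under every alternative run. Requiring a mean of 5 RPM left no member to test. With a library left out, SP ran from log2 -0.52 (without lfs replicate 1) to 1.30 (without lfs replicate 2) in lfs against WT, and from -3.34 (without TIBA replicate 1) to 0.12 (without TIBA replicate 2) in lfs against TIBA, so both directions reversed. No value could be formed for the SP to SFT ratio. The sample labels do not pair the repeats, and same-numbered libraries did not deviate together (r = 0.015 for WT and lfs, -0.051 for WT and TIBA, -0.14 for lfs and TIBA). With the replicate number as a block, 1 member was called in TIBA against WT (SP2G, adjusted p = 0.0279) and 0 in the others, so no call on a member changed; the flowering identifiers lower in lfs than in WT went from 3 to 1. Counts over all genes moved more. For lfs against TIBA, 912 became 2008 with DESeq2, 565 at 5 RPM, 587 without trend, 474 with the block, 369 with 4 libraries, and 105 to 2777 with a library left out. For lfs against WT, 2810 became 1857 without trend, 4494 with 4 libraries and 562 to 4428 with a library left out. For TIBA against WT, 3681 became 2323 without trend and 661 to 6555 with a library left out.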
